A study of Mus musculus with 8 samples.

Results

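The genes described here are 10 genes of interleukin-7 (IL-7) receptor signalling, chosen by name: the receptor chains Il7r and Il2rg, the kinases Jak1 and Jak3, the transcription factors Stat5a and Stat5b, and the feedback inhibitors Cish, Socs1, Socs2 and Socs3. All 10 were found among the 27179 genes of the count table by their Entrez identifiers, and all 10 were among the 17700 genes that passed the filter on low counts. RNA was taken from 2 sorted B cell progenitor populations of mouse bone marrow, early large pre-B cells (eLPre) and small pre-B cells (sPre). Mice of all groups were Upf1 Flox/Flox and carried 1 B1-8hi allele at Igh, and they were Mb1 +/+ in Ctrl but Mb1 Cre/+ in cKO, so that Cre was the only allele by which the genotypes differed on the labels. Floxed Upf1, which encodes an RNA helicase of nonsense-mediated mRNA decay, and the rearranged heavy chain allele B1-8hi, which supplies a heavy chain without recombination, were shared by all 4 groups. Mb1-Cre is inserted in Cd79a and acts throughout the B lineage, so the deletion was not limited to 1 stage, and the cKO mice carried 1 disrupted copy of Cd79a. Mice were 8 to 16 weeks old, of both sexes and on a C57BL/6 background. Cells were sorted by size and surface markers, among them B220+ and surface IgM- for both populations, with eLPre taken as large CD43+ CD2- and sPre as small CD43-low CD25+ CD2+ cells, so the genes of these sort markers are no finding by stage. Both populations were also gated as lineage-negative, with antibodies that included those to CD3e, CD11b and CD11c. There were 2 libraries in each of the 4 groups, and although the study's methods call its plotted data points independent biological replicates, neither they nor the labels say that these libraries came from separate mice. The p-values thus measure the spread between these samples, which in cKO may be technical. At each stage the 2 Ctrl libraries differed in Xist and Y-linked counts, given below, so they were not from the same mouse.

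IL-7 is made by stromal cells of the bone marrow and binds a receptor made of IL-7Rα (Il7r) and the common γ chain (Il2rg). Binding brings together JAK1, which sits on IL-7Rα, and JAK3, which sits on the γ chain, and the kinases phosphorylate STAT5A and STAT5B, which then enter the nucleus. In large pre-B cells this pathway drives proliferation and survival, and its decline accompanies the step to the resting small pre-B cell, where light chain genes recombine. Cish, Socs1, Socs2 and Socs3 encode SH2-domain proteins that are induced by STAT factors and dampen the receptor or the kinases, and Cish is a classical STAT5 target.

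The motif bound by STAT dimers, TTCNNNGAA, which reads the same on both strands, was searched for in RefSeq promoter windows of 300 bases (250 before to 50 after the start; GRCm38.p6). A window was present for 9 of the 10 genes, Socs2 being the exception, and the motif was found in windows of 3 of these 9 genes, Il7r, Cish and Socs3, against 9.55% of the 27025 genes with a window. The 30 bases around the matches of the feedback genes are shown because Cish held 2 matches, and 0.457% of all 32851 windows held 2 or more at any distance. Capitals mark the motif, and both sequences are given 5′ to 3′ on the strand of the gene (Cish on the plus strand at chr9:107296654-107296683, Socs3 on the minus strand at chr11:117969501-117969530).
Cish: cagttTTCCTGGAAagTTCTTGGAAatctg
Socs3: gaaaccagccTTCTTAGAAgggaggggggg
The first match in Cish began at base 1 of the annotated transcript and the other at base 12, while that in Socs3 lay 154 bases before the start used for its window. The gene span given for Socs3 below reaches further, to 117970336, so this match lies inside that span. In Il7r 1 match lay 142 bases before the start used for its window. The gene span given for Il7r below begins nearer to this match, at 9529941 on the minus strand. Letters alone do not show that a site is used, and no match was found in the window of Socs1.

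Counts per library summed to between 68516857 and 160426338. The gene-level count of Upf1 was not lower in the libraries labelled cKO (244 to 293 CPM, counts scaled to library size, against 186 to 237 in Ctrl), and it was higher in cKO sPre cells (log2 fold change 0.59, SE 0.10, adjusted p = 0.00245). A count over the whole gene does not show the loss of deleted exons, so the label could not be checked on it, and cKO below means the libraries so labelled. Cd79a was lower in each of the 4 libraries labelled cKO (160.0 to 405 CPM) than in the Ctrl libraries of the same stage (543 to 1602 CPM). Both Ctrl replicate 2 libraries stood apart, with 151 and 304 counts of the X-inactivation RNA Xist and 28205 and 19733 counts of Y-linked genes, while the other 6 libraries had at least 290740 and at most 34. T and NK cell markers summed to 1.91 to 10.2 CPM with at most 2 of 8 at 0. Several marker lists moved with genotype. The 7 B lineage markers given here, none at 0, summed to 3407 to 3435 CPM in cKO and 4697 to 4953 CPM in Ctrl eLPre cells, and to 4115 to 4360.0 and 6079.6 to 6359 CPM in sPre cells. Cd79a, where Cre is inserted, is 1 of them, with means of 174 against 592 CPM in eLPre and 365 against 1540 CPM in sPre cells. In eLPre cells 4 of the markers were lower in cKO, Cd79a, Blnk and Ptprc among them, where 16.9% of all genes were. In sPre cells only Cd79a and Ebf1 were lower, where 14.9% of all genes were. Erythroid and platelet markers, at most 1 of 5 at 0, summed to 2.56 to 7.45 CPM in cKO and 10.4 to 11.5 CPM in Ctrl eLPre cells, and to 6.45 to 11.2 and 20.5 to 20.6 CPM in sPre cells. Stage markers summed to 5195 to 5481 CPM in cKO and 7746 to 8217 CPM in Ctrl eLPre cells, where the proliferation gene Mki67 was highest. There 3 of 9, Kit (fold 0.175), Il2ra and Spn, were lower in cKO and none higher, and Mki67 was not called. In sPre cells the sums were 1715 to 1933 CPM in cKO and 1241 to 1812 CPM in Ctrl, where the libraries overlapped. Mki67 was highest in these except in Ctrl replicate 2, where Il2ra was. In sPre cells 2 of 9 markers, Vpreb1 and Igll1, were higher in cKO and none lower, beside 19.8% and 14.9% of all genes. Myeloid markers, mostly Itgam, summed to 50.1 to 55.6 CPM in cKO and 111 to 134 CPM in Ctrl eLPre cells, and to 211 to 243 and 304 to 355 CPM in sPre cells, with no gene of the list at 0. Dendritic cell markers, almost all Itgax, reached 335 to 379 CPM in cKO sPre cells against 66.1 to 118 CPM in Ctrl, and mature B cell markers 371 to 603 CPM against 226 to 300.1 CPM. The lineage-negative gate of the sort used antibodies to CD11b and CD11c, the proteins of Itgam and Itgax. The part of these shifts in the results below was not tested, and in bulk RNA fewer cells of a type and less RNA per cell cannot be told apart.

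In eLPre cells Socs1, Cish and Jak1 were lower and Socs2 and Stat5b higher in the libraries labelled cKO, the largest difference being that of Socs1 (fold 0.470). These made 5 of the 10 genes past an adjusted p of 0.05 in edgeR's quasi-likelihood test, 2 higher and 3 lower, where 31.3% of all genes tested passed (14.5% higher and 16.9% lower). With 1 library left out the count ranged from 1 to 6, being 1 (Socs1) without cKO eLPre replicate 1, 2 without Ctrl eLPre replicate 2 or cKO eLPre replicate 2, and 3 without Ctrl eLPre replicate 1. In sPre cells 7 of 10 passed, with Jak3, Stat5b, Socs2 and Socs3 higher and Jak1, Cish and Socs1 lower in cKO, against 34.7% of all genes (19.8% higher, 14.9% lower), and 4 to 7 passed with 1 library left out, the fewest without cKO sPre replicate 1. The median log2 fold change of the 10 genes was 0.01 in eLPre and 0.30 in sPre cells, beside -0.06 and 0.01 for all genes tested. The test of whether the cKO effect differed between the stages passed for Jak3 alone among the 10 genes, with 4.24% of all genes passing it (2.64% higher, 1.6% lower).

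From eLPre to sPre cells, Socs1 and Il2rg rose and Socs2 and Jak3 fell in both genotypes. In Ctrl 7 of the 10 genes passed the test, 3 higher (Il2rg, Jak1, Socs1) and 4 lower (Jak3, Cish, Socs2, Socs3), where 60.2% of all genes passed (29.1% higher, 31.1% lower). In cKO 7 passed as well, 4 higher (Il7r, Il2rg, Jak1, Socs1) and 3 lower (Jak3, Cish, Socs2), where 62.6% of all genes passed (31.6% higher, 31.1% lower). The median log2 fold change with stage was -0.12 in Ctrl and 0.08 in cKO, beside 0.02 and 0.05 for all genes. The comparisons share libraries, so their values are set side by side and not related to each other.

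**Figure D1:**
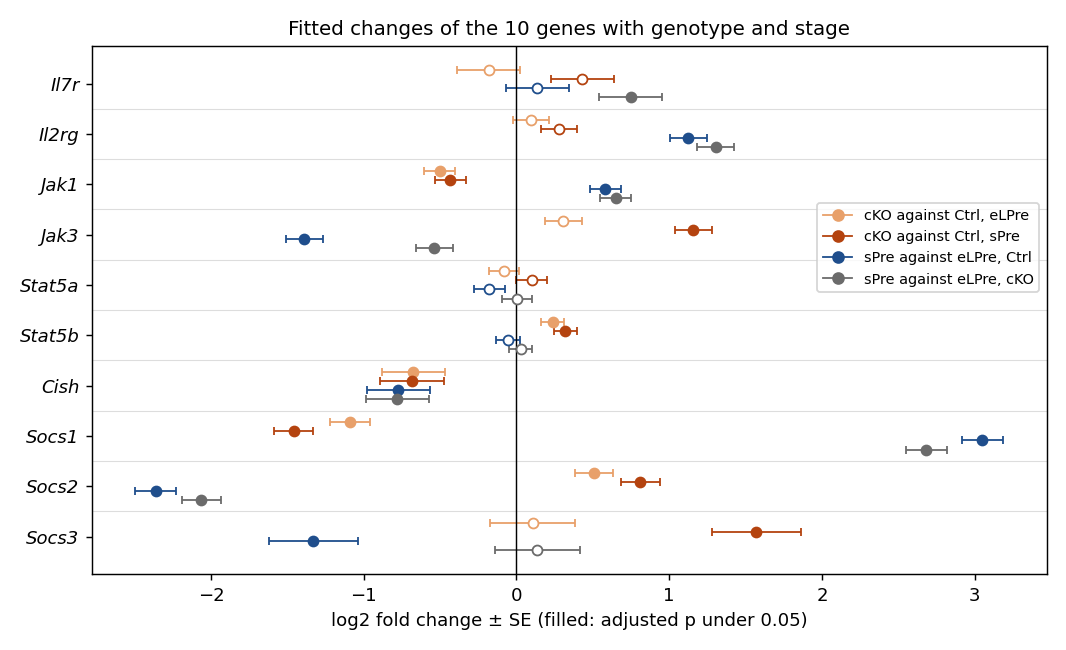
Fitted log2 fold change (x axis) of each of the 10 genes (y axis) in the comparisons by genotype at each stage and by stage in each genotype. Bars are SE, and filled points passed an adjusted p of 0.05. Socs1 lies furthest to the right with stage (3.05 in Ctrl) and on the left with genotype, Socs2 and Jak3 lie the opposite way, and Stat5a stays near 0 with open points throughout.

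Il7r (chr15:9506159-9529941, minus strand) encodes the chain that gives the receptor its specificity for IL-7. Its level was 460.2 and 625 CPM in Ctrl eLPre, 443 and 513 CPM in cKO eLPre, 558 and 635 CPM in Ctrl sPre, and 663 and 943 CPM in cKO sPre libraries (replicates 1 and 2 in that order, here and below). Only the cKO sPre libraries lay above all others, and they were also the furthest from each other. The rise from eLPre to sPre passed the test in cKO (log2 fold change 0.75, SE 0.21, adjusted p = 0.0121), whereas in Ctrl the value was 0.14 with an SE of 0.21 (adjusted p = 0.588). The difference between cKO and Ctrl was -0.18 in eLPre (adjusted p = 0.540) and 0.43 in sPre cells (adjusted p = 0.141, but 0.0295 with a replicate block), and the difference of these differences was 0.61, SE 0.29 (adjusted p = 0.277). The stage call in cKO was lost without cKO eLPre replicate 1 (adjusted p = 0.0781) and without cKO sPre replicate 2 (adjusted p = 0.0996).

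Il2rg (chrX:101264385-101268255, minus strand) encodes the γ chain that the receptors for IL-2, IL-4, IL-7, IL-9, IL-15 and IL-21 share. Levels were 39.2 and 33.2 CPM in Ctrl eLPre, 41.6 and 35.9 CPM in cKO eLPre, 74.0 and 84.1 CPM in Ctrl sPre, and 99.1 and 92.2 CPM in cKO sPre libraries. Every sPre library exceeded every eLPre library, and the cKO sPre libraries exceeded the Ctrl sPre libraries. The stage rise was 2.18-fold in Ctrl (log2 1.13, SE 0.12, adjusted p = 6.29e-05) and 2.47-fold in cKO (log2 1.30, SE 0.12, adjusted p = 2.82e-05). The genotype difference did not pass in sPre (log2 0.28, SE 0.12, adjusted p = 0.104) or in eLPre cells (log2 0.10, adjusted p = 0.575). Il2rg is X-linked and overlaps Gm20489 on the same strand, so some of its reads may belong to that gene. Without both Ctrl replicate 2 libraries, which differed from the rest in Xist and Y-linked counts, the stage rise passed in both genotypes.

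**Figure D2:**
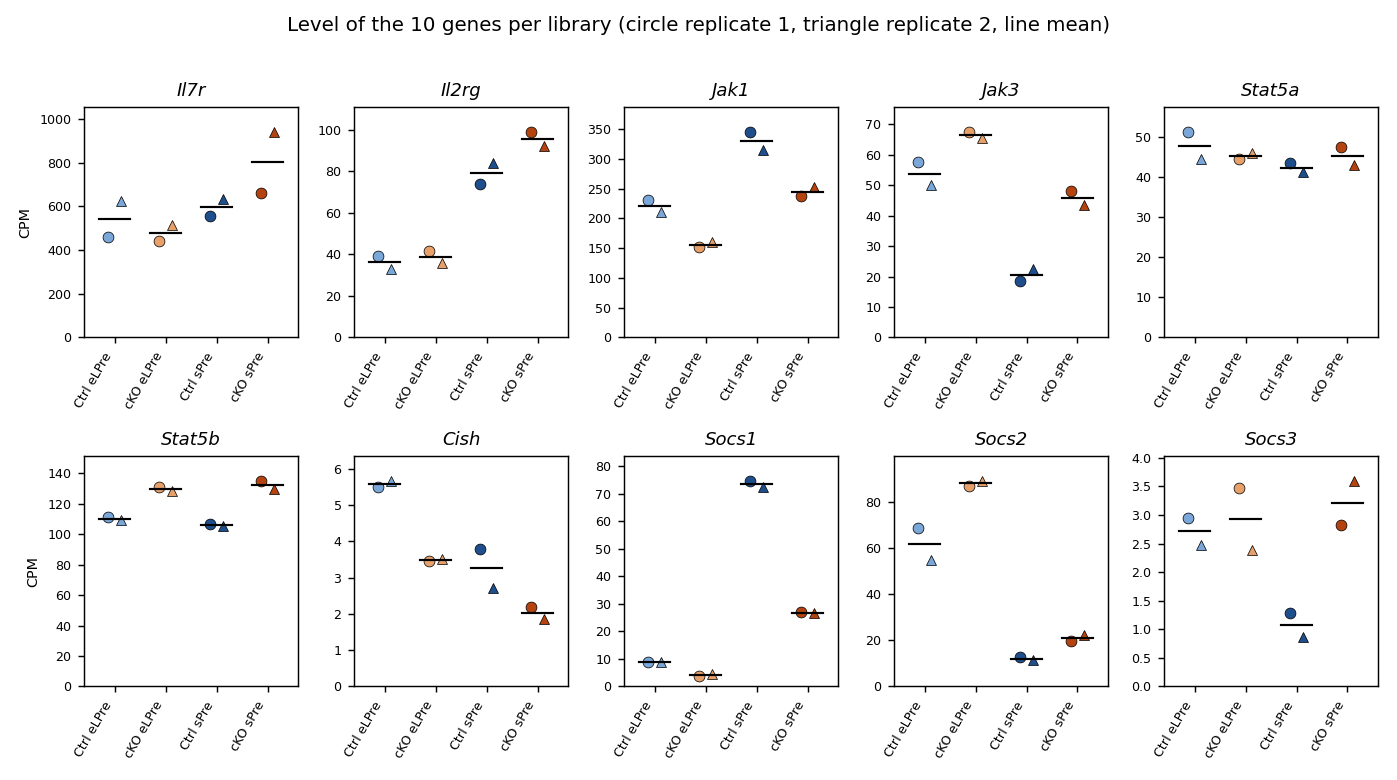
Level in CPM (y axes, from 0) of each of the 10 genes in the 8 libraries, by group (x axes). Circles are replicate 1, triangles replicate 2, and lines group means. Socs1 and Socs2 show opposite orders of the 4 groups, and Jak1 and Jak3 do the same over a narrower range.

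Jak1 (chr4:101151974-101265282, minus strand) encodes the kinase bound to IL-7Rα, which also serves interferon and IL-6 family receptors. It was measured at 231 and 211 CPM in Ctrl eLPre, 152 and 160.4 CPM in cKO eLPre, 346 and 316 CPM in Ctrl sPre, and 237 and 252 CPM in cKO sPre libraries. The order Ctrl sPre, cKO sPre, Ctrl eLPre, cKO eLPre held with no overlap between neighbouring groups. In cKO the level was lower by a fold of 0.706 in eLPre (log2 -0.50, SE 0.10, adjusted p = 0.00637) and 0.740 in sPre cells (log2 -0.43, SE 0.10, adjusted p = 0.0107). The rise with stage was 1.496-fold in Ctrl (adjusted p = 0.00107) and 1.57-fold in cKO (adjusted p = 5.38e-04). The call in eLPre was lost without cKO eLPre replicate 1 (adjusted p = 0.0578), and that in sPre without cKO sPre replicate 1 (adjusted p = 0.0878).

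Jak3 (chr8:71676383-71690577, plus strand) encodes the kinase bound to the γ chain and is largely limited to blood cells. Its levels were 57.5 and 49.99 CPM in Ctrl eLPre, 67.6 and 65.4 CPM in cKO eLPre, 18.5 and 22.6 CPM in Ctrl sPre, and 48.0 and 43.6 CPM in cKO sPre libraries. The order of the groups was the reverse of that of Jak1, again without overlap. In Ctrl cells Jak3 fell with stage to a fold of 0.382 (log2 -1.39, SE 0.12, adjusted p = 2.18e-05), and in cKO cells to 0.689 (log2 -0.54, SE 0.12, adjusted p = 0.00403). In sPre cells it was thus 2.23-fold higher in cKO than in Ctrl (log2 1.16, SE 0.12, adjusted p = 2.48e-04), while in eLPre cells the difference of 0.31 (SE 0.12) did not pass (adjusted p = 0.0832). The cKO effect was larger in sPre cells by 0.85 on the log2 scale (SE 0.17, adjusted p = 0.0321). This test of the difference passed in 1 of 8 fits that left out 1 library, that without Ctrl sPre replicate 2, with values between 0.63 and 0.92 and adjusted p between 0.0449 and 0.109. Jak3 overlaps Insl3 on the same strand.

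Stat5a (chr11:100859351-100885169, plus strand) and Stat5b (chr11:100780731-100859004, minus strand) are neighbouring copies that encode closely related transcription factors, and reads from identical stretches cannot be assigned with certainty. Stat5a was measured at 51.3 and 44.4 CPM in Ctrl eLPre, 44.4 and 46.0 CPM in cKO eLPre, 43.4 and 41.2 CPM in Ctrl sPre, and 47.6 and 43.0 CPM in cKO sPre libraries. Its groups overlapped apart from Ctrl sPre against both eLPre groups, and it passed none of the tests, with log2 fold changes by stage and genotype between -0.18 and 0.10 (SE 0.10) and a stage dependence of 0.18 (SE 0.14). Stat5b was measured at 111 and 109 CPM in Ctrl eLPre, 131 and 129 CPM in cKO eLPre, 107 and 105 CPM in Ctrl sPre, and 135 and 129 CPM in cKO sPre libraries. All 4 cKO libraries lay above all 4 Ctrl libraries. Stat5b was 1.18-fold higher in cKO eLPre (log2 0.24, SE 0.08, adjusted p = 0.0461) and 1.25-fold higher in cKO sPre cells (log2 0.32, SE 0.08, adjusted p = 0.0127), with no call by stage (log2 -0.06 in Ctrl and 0.03 in cKO). The eLPre call held in 2 of the 8 fits without 1 library, those without a Ctrl sPre library, and the sPre call in 5, being lost without either Ctrl sPre library or without cKO sPre replicate 1 (adjusted p up to 0.184 and 0.0940). Neither call held without both Ctrl replicate 2 libraries (adjusted p = 0.0817 and 0.0746), and the eLPre call was also lost without the filter on low counts (0.104) and with immunoglobulin genes left out (0.0507). Stat5a also overlaps Stat3 on the opposite strand, and the counts did not use strand.

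Compared per kilobase of exon, the ratio of Jak1 to Jak3 was 2.97 and 3.12 in Ctrl eLPre, 1.66 and 1.81 in cKO eLPre, 13.9 and 10.3 in Ctrl sPre, and 3.66 and 4.28 in cKO sPre libraries. The ratio was thus lower in cKO than in Ctrl at each stage, and the cKO sPre libraries were closer to the Ctrl eLPre than to the Ctrl sPre libraries. Stat5b exceeded Stat5a by 2.80 to 3.30 in the 4 Ctrl libraries and by 3.61 to 3.88 in the 4 cKO libraries. These ratios restate the levels given above and were not tested on their own. Among the 10 genes Il7r had the highest level per kilobase in every group, with means between 103 and 172 RPKM (CPM per kilobase of exon), and Cish the lowest in every group but Ctrl sPre, with 0.317 to 0.869 RPKM. In Ctrl sPre cells Socs3 was lowest, at 0.372 ± 0.104 RPKM (SD, n = 2), and its 2 libraries overlapped those of Cish. They also overlapped in Ctrl eLPre cells, with 0.8564 and 0.8825 RPKM for Cish and 1.021 and 0.8556 RPKM for Socs3. In CPM, which does not divide by length, Socs3 had the lower mean in both eLPre groups. It was 2.71 against 5.58 CPM for Cish in Ctrl and 2.93 against 3.49 CPM in cKO. The exon lengths are the union over annotated transcripts, so genes with long alternative exons, such as Cish and Socs2, get lower values.

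**Figure D3:**
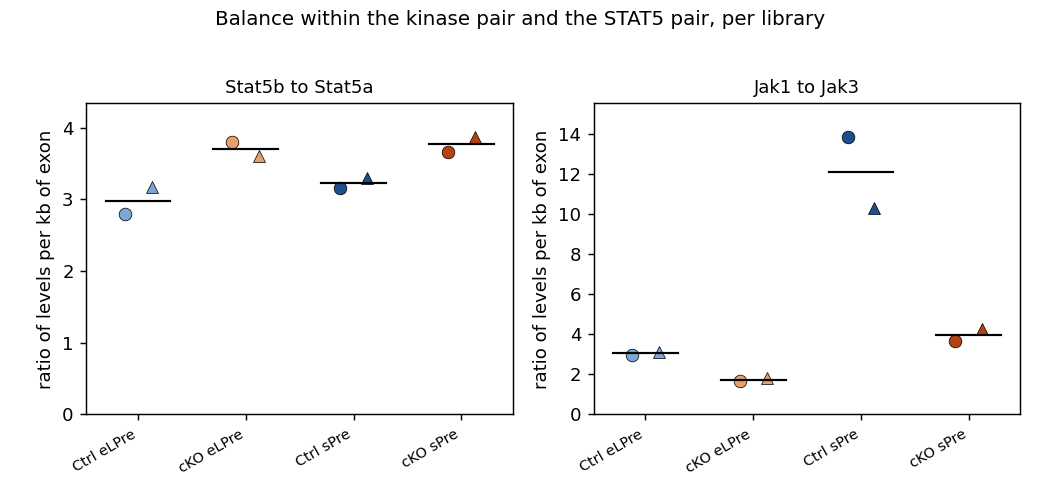
Ratio of Stat5b to Stat5a and of Jak1 to Jak3 per kilobase of exon (y axes, from 0) in the 8 libraries, by group (x axes). Circles are replicate 1, triangles replicate 2, and lines group means. The Jak1 to Jak3 ratio reaches 10.3 to 13.9 in the Ctrl sPre libraries only, and the Stat5b to Stat5a ratio is higher in the 4 cKO libraries than in the 4 Ctrl libraries.

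Socs1 (chr16:10783808-10785536, minus strand) encodes a direct inhibitor of JAK kinase activity. It was measured at 8.77 and 8.96 CPM in Ctrl eLPre, 3.63 and 4.69 CPM in cKO eLPre, 74.6 and 72.3 CPM in Ctrl sPre, and 26.96 and 26.5 CPM in cKO sPre libraries. No groups overlapped, and the highest group mean was 17.7 times the lowest. The rise with stage was 8.28-fold in Ctrl (log2 3.05, SE 0.14, adjusted p = 1.17e-06) and 6.42-fold in cKO (log2 2.68, SE 0.13, adjusted p = 1.87e-06), so that Socs1 rose in both genotypes from a lower level in cKO. In cKO the level was lower by a fold of 0.470 in eLPre (log2 -1.09, SE 0.13, adjusted p = 5.40e-04) and 0.364 in sPre cells (log2 -1.46, SE 0.13, adjusted p = 1.03e-04). The difference between these effects, -0.37 with an SE of 0.18, did not pass (adjusted p = 0.290).

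Socs2 (chr10:95383903-95417321, minus strand) encodes an inhibitor best known for its action on growth hormone signalling, and is also induced through STAT5. Its levels were 68.8 and 54.9 CPM in Ctrl eLPre, 87.0 and 89.1 CPM in cKO eLPre, 12.7 and 11.3 CPM in Ctrl sPre, and 19.8 and 22.3 CPM in cKO sPre libraries. The groups stood in the reverse of the order seen for Socs1, without overlap, and spanned a 7.32-fold range of means. With stage Socs2 fell to a fold of 0.194 in Ctrl (log2 -2.36, SE 0.13, adjusted p = 2.43e-06) and 0.239 in cKO (log2 -2.06, SE 0.13, adjusted p = 4.33e-06). In cKO it was 1.42-fold higher in eLPre (log2 0.51, SE 0.12, adjusted p = 0.0149) and 1.75-fold higher in sPre cells (log2 0.81, SE 0.13, adjusted p = 0.00176). The eLPre call was lost without Ctrl eLPre replicate 2 or either cKO eLPre library (adjusted p up to 0.0737).

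Cish (chr9:107296659-107302784, plus strand) encodes the first-described member of this inhibitor family, which competes with STAT5 for docking on receptors. It was measured at 5.497 and 5.66 CPM in Ctrl eLPre, 3.46 and 3.52 CPM in cKO eLPre, 3.79 and 2.72 CPM in Ctrl sPre, and 2.20 and 1.87 CPM in cKO sPre libraries, from 192 to 760 counts. Ctrl eLPre stood highest and cKO sPre lowest, with cKO eLPre and Ctrl sPre overlapping between them. Cish was lower in cKO by nearly the same amount at both stages, with folds of 0.626 in eLPre (log2 -0.68, SE 0.21, adjusted p = 0.0358) and 0.623 in sPre cells (log2 -0.68, SE 0.21, adjusted p = 0.0345), and the difference between the effects was -0.01 with an SE of 0.28. With stage it fell to 0.585 in Ctrl (adjusted p = 0.0107) and 0.583 in cKO (adjusted p = 0.0104). These calls were close to the threshold: the eLPre call was lost without any 1 of the 4 eLPre libraries (adjusted p up to 0.149), the sPre call without either cKO eLPre library, Ctrl sPre replicate 1 or either cKO sPre library (up to 0.200), the Ctrl stage call without replicate 2 of either stage (up to 0.125), and the cKO stage call without cKO sPre replicate 2 (0.0624). Without both Ctrl replicate 2 libraries the eLPre call (adjusted p = 0.100) and the Ctrl stage call (0.192) were lost. Cish, whose promoter window holds the paired motif shown above, also overlaps 2 genes on the opposite strand, Gm17040 and Gm17041, from which its reads could not be separated.

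Socs3 (chr11:117966079-117970336, minus strand) encodes an inhibitor that binds gp130-type receptors and JAK kinases. Alongside Cish, it had the fewest counts of the 10 genes. Socs3 had 61 to 450 per library, at 2.95 and 2.47 CPM in Ctrl eLPre, 3.47 and 2.38 CPM in cKO eLPre, 1.29 and 0.865 CPM in Ctrl sPre, and 2.82 and 3.597 CPM in cKO sPre libraries. The Ctrl sPre libraries lay below the other 6, which overlapped. Socs3 fell with stage in Ctrl to a fold of 0.398 (log2 -1.33, SE 0.29, adjusted p = 0.00397) but had a log2 fold change of 0.14 (SE 0.28, adjusted p = 0.691) in cKO. In sPre cells it was 2.97-fold higher in cKO (log2 1.57, SE 0.29, adjusted p = 0.00397), against 0.11 (SE 0.28, adjusted p = 0.809) in eLPre cells. The difference between these effects was 1.46 with an SE of 0.40, which did not pass (adjusted p = 0.0806) but did with DESeq2 (0.0191) and without the filter on low counts (0.0252), and the range over all alternatives reached 0.299. The fall in Ctrl was lost without both Ctrl replicate 2 libraries (adjusted p = 0.0611).

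The other 4 genes of the inhibitor family, Socs4, Socs5, Socs6 and Socs7, were all lower in cKO eLPre cells, where 16.9% of all genes were, and 2 of 4, Socs5 and Socs6, were lower in cKO sPre cells, where 14.9% were. Socs5 was measured at 21.7 and 23.2 CPM in Ctrl and 15.5 and 15.4 CPM in cKO eLPre libraries (log2 -0.54, SE 0.09, adjusted p = 0.00341), and at 50.2 and 48.1 against 31.9 and 31.7 CPM in sPre libraries (log2 -0.63, SE 0.09, adjusted p = 0.00137). The groups did not overlap at either stage. The median log2 fold change of the 4 was -0.37 in eLPre and -0.32 in sPre cells. The call of Socs4 in eLPre cells (log2 -0.36) was lost without Ctrl eLPre replicate 2 or cKO eLPre replicate 1 (adjusted p up to 0.0860), and that of Socs7 (log2 -0.37) without either Ctrl eLPre library, cKO eLPre replicate 1 or Ctrl sPre replicate 2 (up to 0.171). Both were also lost without both Ctrl replicate 2 libraries (0.0741 and 0.138). In sPre cells the call of Socs6 (log2 -0.33) was lost in 6 of the 8 fits without 1 library, all but those without a Ctrl eLPre library (up to 0.255), and without the filter on low counts (0.0823).

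Of the cytokines and other chains of receptors that contain Il7r or Il2rg, 8 of 9 could be tested, and Il9r, the IL-9 receptor chain that pairs with Il2rg, had the largest fold change of the list between cKO and Ctrl sPre cells. Il9r (chr11:32187544-32205283) was at 0.0796 and 0.0513 CPM in Ctrl eLPre, 0.230 and 0.239 CPM in cKO eLPre, 0.319 and 0.113 CPM in Ctrl sPre, and 62.2 and 55.7 CPM in cKO sPre libraries. In counts, the cKO sPre libraries held 5740 and 6967, and the other 6 libraries between 4 and 31. The log2 fold change in cKO against Ctrl sPre cells was 8.04 (SE 0.33, adjusted p = 9.44e-06), in cKO with stage 7.97 (SE 0.32, adjusted p = 9.47e-07), and that of the stage dependence of the cKO effect 6.29 (SE 0.68, adjusted p = 0.00433). The first 2 passed in each of the 8 fits without 1 library, with the first between 7.49 and 8.97, and the third was lost without Ctrl eLPre replicate 1 (adjusted p = 0.0705). The smaller difference in eLPre cells (log2 1.75, SE 0.44, adjusted p = 0.0165) was lost without any 1 of the 4 eLPre libraries (up to 0.0696). Mature B cell markers and Itgax were also higher in the cKO sPre libraries, with the values given above, and their part in the level of Il9r was not tested.

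In the same list, 2 of 8 genes, Crlf2 and Il9r, were higher and 1, Il2ra, was lower in cKO eLPre cells, and Crlf2 and Il9r were higher and none lower in cKO sPre cells, which is near the share of all genes called in eLPre (31.3%) and called higher in sPre cells (19.8%). Crlf2, which pairs with IL-7Rα in the receptor for TSLP, was measured at 23.1 and 21.0 CPM in Ctrl and 30.9 and 30.5 CPM in cKO eLPre libraries (log2 0.48, SE 0.10, adjusted p = 0.00831), and at 18.7 and 19.2 against 28.8 and 29.7 CPM in sPre libraries (log2 0.63, SE 0.10, adjusted p = 0.00203). All 4 cKO libraries lay above all 4 Ctrl libraries, and the eLPre call was lost without cKO eLPre replicate 1 (adjusted p = 0.0628). Il4ra, the IL-4 receptor chain, rose with stage in Ctrl from 16.6 and 18.5 to 139 and 157 CPM (log2 3.08, SE 0.16, adjusted p = 1.82e-06), and Il21r, the IL-21 receptor chain, from 10.7 and 8.61 to 78.6 and 81.2 CPM (log2 3.05, SE 0.24, adjusted p = 1.18e-05). Il2ra encodes CD25, which was used to sort sPre cells, so its level by stage is no finding. The cytokine genes Il7 and Tslp were at 0.340 CPM or less in every library.

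**Figure D4:**
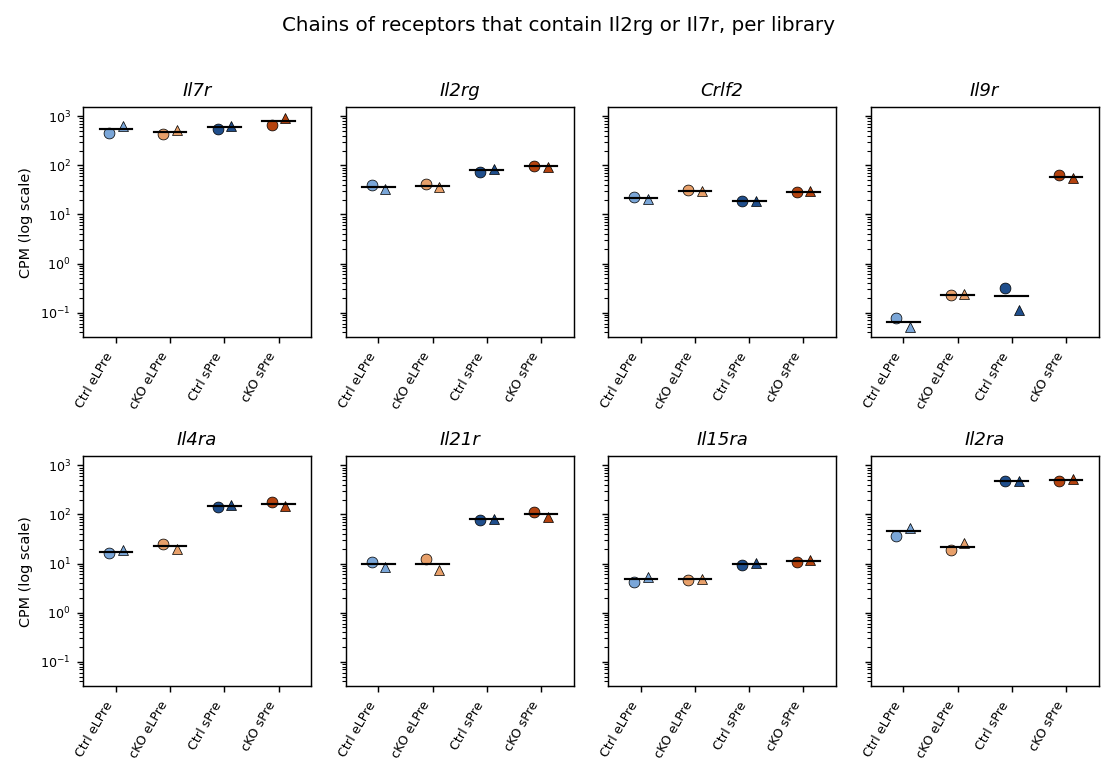
Level in CPM on a shared log scale (y axes) of Il7r, Il2rg and 6 chains that pair with them, in the 8 libraries by group (x axes). Circles are replicate 1, triangles replicate 2, and lines group means. Il9r lies at 0.319 CPM or less in 6 libraries and at 55.7 and 62.2 CPM in the cKO sPre libraries.

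Among the other 7 JAK and STAT genes, 2 were higher and 2 lower in cKO eLPre cells, and 5 were higher and none lower in cKO sPre cells, with medians of 0.22 and 0.37 beside -0.06 and 0.01 for all genes. The test called 31.3% of all genes in eLPre cells, and called 19.8% higher and 14.9% lower in sPre cells. Stat2, a partner in interferon signalling, was measured at 44.0 and 47.5 CPM in Ctrl and 83.5 and 89.5 CPM in cKO eLPre libraries (log2 0.92, SE 0.09, adjusted p = 1.60e-04), and at 105 and 112 against 167 and 162 CPM in sPre libraries (log2 0.60, SE 0.08, adjusted p = 0.00108). Tyk2, a kinase of interferon and IL-12 receptors, was higher in cKO sPre cells by 0.80 (SE 0.10, adjusted p = 4.50e-04). Stat4, which acts below the IL-12 receptor, went opposite ways: it was measured at 17.8 and 15.6 CPM in Ctrl and 8.01 and 9.01 CPM in cKO eLPre libraries, but at 4.79 and 5.83 against 13.4 and 11.5 CPM in sPre libraries. It was lower in cKO eLPre (log2 -0.98, adjusted p = 0.00228) and higher in cKO sPre cells (log2 1.23, adjusted p = 6.82e-04), and the difference of 2.20 passed (SE 0.22, adjusted p = 0.00346).

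Genes known to respond to STAT5 moved in both directions. Of 12 tested, 2 were higher and 5 lower in cKO eLPre cells, and 4 were higher and 3 lower in cKO sPre cells, with medians of -0.21 and 0.08. For all genes the shares were 14.5% higher and 16.9% lower in eLPre cells and 19.8% higher and 14.9% lower in sPre cells. The survival gene Bcl2l1, which encodes BCL-XL, was measured at 140.3 and 142 CPM in Ctrl and 76.5 and 80.3 CPM in cKO eLPre libraries (log2 -0.85, SE 0.10, adjusted p = 4.08e-04), and at 279 and 275 against 158 and 181 CPM in sPre libraries (log2 -0.71, SE 0.10, adjusted p = 8.21e-04). The kinase gene Pim1 was also lower in cKO eLPre cells, at 88.4 and 85.9 CPM against 152 and 140.3 CPM in Ctrl (log2 -0.75, SE 0.11, adjusted p = 0.00135), as did Gfi1, a repressor gene (log2 -1.27, SE 0.20, adjusted p = 0.00195). Ccnd2 and Myc went the other way. Ccnd2, which encodes cyclin D2, was at 18.1 and 12.1 CPM in Ctrl sPre and 227 and 158 CPM in cKO sPre libraries (log2 3.67, SE 0.25, adjusted p = 4.07e-05), and Myc at 2.27 and 1.99 against 7.27 and 5.25 CPM (log2 1.55, SE 0.21, adjusted p = 8.52e-04). The cKO effect on Ccnd2 was larger in sPre cells by 2.76 (SE 0.33, adjusted p = 0.00612), and this call was lost without both Ctrl replicate 2 libraries.

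**Figure D5:**
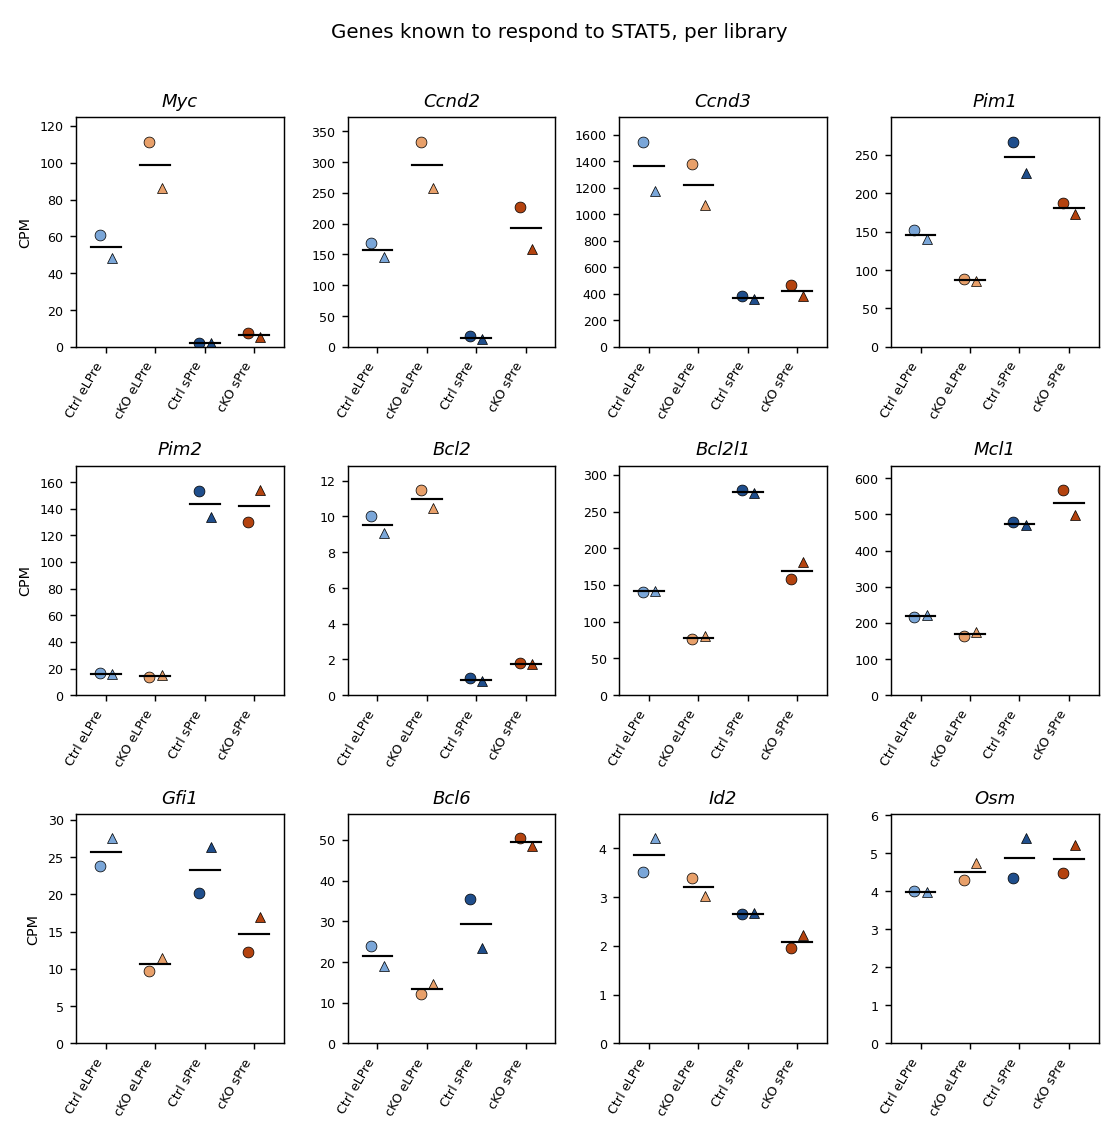
Level in CPM (y axes, from 0) of 12 genes known to respond to STAT5 in the 8 libraries, by group (x axes). Circles are replicate 1, triangles replicate 2, and lines group means. Bcl2l1 and Pim1 are lower in cKO at both stages, while Myc and Ccnd2 are higher in cKO, with Ccnd2 at 158 and 227 CPM in the cKO sPre libraries.

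The counts of the other lists by stage are set against all genes tested, of which 29.1% rose and 31.1% fell in Ctrl and 31.6% rose and 31.1% fell in cKO. From eLPre to sPre cells in Ctrl, 5 of the 8 receptor genes rose, Il2ra of the sort among them, and none fell, 6 of 7 JAK and STAT genes rose and 1 fell, 1 of the other 4 inhibitors rose, 4 of 12 phosphatases, adaptors and ligases rose and 1 fell, 6 of 12 genes of the PI3K arm rose, and 4 of 8 transcription factors that act on Il7r rose and 1 fell. The genes known to respond to STAT5 were split, with 4 higher and 5 lower. In cKO, in the same order, 5 of 8 receptor genes, 7 of 7 JAK and STAT genes, 1 of 4 inhibitors, 5 of 12 phosphatases, adaptors and ligases (2 fell), 7 of 12 genes of the PI3K arm and 4 of 8 transcription factors (1 fell) rose, and 5 genes known to respond to STAT5 rose and 5 fell. The shares of the phosphatase list and of the other inhibitors that rose lay near those of all genes. Pim2, a kinase gene related to Pim1, rose in Ctrl from 16.4 and 15.6 to 153 and 134 CPM (log2 3.17, SE 0.12, adjusted p = 8.93e-07). Myc fell from 60.9 and 48.1 to 2.27 and 1.99 CPM (log2 -4.68, SE 0.22, adjusted p = 1.37e-06), and Bcl2, a survival gene, from 10.02 and 9.05 to 0.946 and 0.780 CPM (log2 -3.46, SE 0.18, adjusted p = 1.84e-06). Each of these calls held in all 8 fits without 1 library.

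The transcription factors known to act on Il7r were mostly lower in cKO, while Il7r itself passed the test by genotype at neither stage without the replicate block. At each stage 6 of 8 were lower and none higher, where 16.9% of all genes were lower in eLPre and 14.9% in sPre cells, with medians of -0.52 and -0.50 beside -0.06 and 0.01 for all genes. Spi1, which encodes PU.1, was measured at 53.5 and 47.4 CPM in Ctrl and 30.9 and 27.9 CPM in cKO eLPre libraries (log2 -0.78, SE 0.10, adjusted p = 8.51e-04), and at 77.8 and 83.5 against 43.5 and 47.4 CPM in sPre libraries (log2 -0.83, SE 0.10, adjusted p = 5.27e-04). Runx1 was lower by -0.59 at both stages (SE 0.09, adjusted p = 0.00159 and 0.00131). Ets1 was lower by -0.64 in eLPre cells (SE 0.11, adjusted p = 0.00355), and Ebf1 by -0.80 in sPre cells (SE 0.14, adjusted p = 0.00265).

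In the PI3K, AKT and FOXO arm, which the IL-7 receptor also engages, 7 of 12 genes were lower and 1 higher in cKO eLPre cells, and 5 were lower and 2 higher in cKO sPre cells, with medians of -0.37 and -0.29. Of all genes 16.9% were lower and 14.5% higher in eLPre cells, and 14.9% lower and 19.8% higher in sPre cells, so the share that was higher in sPre cells lay near that of all genes. Foxo1, a transcription factor that this arm restrains and that drives Rag gene expression, was measured at 231 and 234 CPM in Ctrl and 114 and 119.6 CPM in cKO eLPre libraries (log2 -0.998, SE 0.10, adjusted p = 2.30e-04). Pik3r1, which encodes the regulatory subunit p85α, was at 288 and 253 CPM in Ctrl and 122 and 151 CPM in cKO sPre libraries (log2 -0.99, SE 0.13, adjusted p = 6.47e-04), and Akt1 was lower by -0.70 (SE 0.11, adjusted p = 0.00148). Tsc1, a brake on mTOR, was higher by 0.75 (SE 0.10, adjusted p = 9.03e-04). Of 12 phosphatases, adaptors and ligases acting on JAK-STAT signalling, 6 were lower and 1 higher in cKO eLPre cells. The calls of lowest adjusted p among the 6, those of Cblb, Ptprc and Pias1, were each lost without Ctrl eLPre replicate 2, without cKO eLPre replicate 1 and without both Ctrl replicate 2 libraries, and that of Pias1 also without cKO eLPre replicate 2 (adjusted p up to 0.0801, 0.0916 and 0.130 in that order of genes). In sPre cells 2 of the 12, Pias2 and Cblb, were lower and 1, Ptpn11, was higher, where 14.9% of all genes were lower and 19.8% higher. The call of Ptpn11 (adjusted p = 0.0499) held in none of the 14 alternatives (up to 0.248), and that of Cblb was lost without Ctrl sPre replicate 1 or either cKO sPre library (up to 0.0973), while that of Pias2 held in all 14.

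The genes whose levels over the 8 libraries were most like those of Il7r were Mettl7a2 (Pearson's r = 0.952), Ints6 (0.944) and Ppp1r21 (0.935), among 15938 genes compared on log2 CPM. For Cish they were Exo5 (0.994), Synb (0.992) and Morf4l1b (0.983). These values describe 8 libraries that fall into 4 groups and were picked as the highest of many.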

How the data were processed

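RNA was sequenced from 8 libraries, 2 in each of 4 groups. The authors trimmed reads, aligned them to mm10 and counted them per gene without regard to strand, per the labels and the study's methods (Trim Galore, HISAT2 and featureCounts in the submitters' processing notes; versions not given in the sources used here), and deposited raw counts. From these, genes passing edgeR's filterByExpr (17700 of 27179) were scaled by TMM and fitted over all 8 libraries, and contrasts were tested by edgeR's quasi-likelihood test (edgeR 4.0.16, R 4.3.3) and p-values were adjusted by Benjamini-Hochberg across the genes that entered the fit, at a threshold of 0.05. CPM used TMM sizes, and RPKM the union of GENCODE M21 exons. With 2 libraries against 2 an exact permutation test cannot go below p = 0.333, so none was used. A count of 3, taken as the floor, equalled 0.0217 to 0.0426 CPM, which covers counting error only.

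All 10 genes are named. Of each other list, up to 3 genes called with the lowest adjusted p in a comparison were open to naming, and the 3 genes most like Il7r and Cish are given. The genes and lists were chosen with earlier results of these data known. The code was tested on simulated data. Alternatives were median-ratio size factors, no filter, DESeq2 1.42.0, a replicate block, immunoglobulin genes left out, both Ctrl replicate 2 libraries left out, and each library left out in turn, for which a lone library was assumed to vary like the other groups. Their use on the other lists was chosen after seeing the data.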

Additional observations from a re-analysis of the deposited data

Results flagged for a closer look

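The difference between the cKO effects in sPre and eLPre cells passed edgeR's quasi-likelihood test for 6 genes of the pathway lists, the marker lists not counted. It was 0.85 on the log2 scale for Jak3 (adjusted p = 0.0321), 6.29 for Il9r (0.00433), 2.20 for Stat4 (0.00346), 2.76 for Ccnd2 (0.00612), 1.43 for Bcl6 (0.0301) and 0.62 for Foxo1 (0.0468). These were 1 of the 10 members, 1 of 8 receptor genes, 1 of 7 other JAK and STAT genes, 2 of 12 genes known to respond to STAT5 and 1 of 12 genes of the PI3K arm. No gene of the other pathway lists passed. Of all genes tested, 4.24% passed (2.64% higher, 1.6% lower). Stat4 and Bcl6 were lower in cKO eLPre and higher in cKO sPre cells, with Bcl6, a repressor gene, at 24.0 and 19.0 against 12.2 and 14.6 CPM and at 35.4 and 23.5 against 50.3 and 48.4 CPM. Foxo1 was lower in cKO at both stages, and less so in sPre cells. With 1 library left out, the call held in 8 of 8 fits for Stat4 and Ccnd2, 7 for Il9r, 1 for Jak3, 1 for Bcl6 (that without Ctrl sPre replicate 1; adjusted p up to 0.117) and 0 for Foxo1 (0.0821 to 0.184). Groups of 2 libraries were too small to look for single libraries that stand apart.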

How the results depend on the processing

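Of the 27 member results that passed, 15 passed in all 14 alternatives and none changed direction in any. The 34 values of opposite sign all belonged to results that had not passed, the largest of size 0.189. Without both Ctrl replicate 2 libraries, 3 members passed between genotypes in eLPre cells and 0 in the test of stage dependence, against 5 and 1. The latter count was 2 with DESeq2 and 2 without the filter. With 1 library left out the counts ranged from 1 to 6 in eLPre cells, 4 to 7 in sPre cells and 0 to 1 for stage dependence. Without both Ctrl replicate 2 libraries the log2 value was 0.00647 for Stat5b by stage in Ctrl, 0.105 for Il7r in eLPre cells and -0.0185 for the stage dependence of Jak1. Stat5a by stage in cKO was -0.0125 with median-ratio size factors, -0.00919 without the filter, -0.0126 with DESeq2, -0.0156 without both Ctrl replicate 2 libraries and -0.000131 with the replicate block, and the stage dependence of Cish was 0.000791 with the block. With 1 library left out, log2 values ranged by stage in Ctrl from -0.0121 to 0.44 (Il7r) and -0.0581 to 0.0133 (Stat5b); by stage in cKO from -0.0739 to 0.0711 (Stat5a), -0.00705 to 0.0554 (Stat5b) and -0.12 to 0.43 (Socs3); in eLPre cells from -0.35 to 0.10 (Il7r), -0.0100 to 0.26 (Il2rg), -0.13 to 0.0621 (Stat5a) and -0.19 to 0.36 (Socs3); and for stage dependence from -0.0233 to 0.28 (Il2rg), -0.0742 to 0.11 (Jak1), -0.00171 to 0.25 (Stat5a), -0.00541 to 0.11 (Stat5b) and -0.30 to 0.17 (Cish). The causes were not tested.

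Equal replicate numbers did not pair the libraries by the labels, and deviations from group means correlated at 0.0514 to 0.395 across genes over 2 pairs. The values between the stages of a genotype were the highest, 0.395 in Ctrl and 0.254 in cKO, against 0.0514 to 0.198 between genotypes. Whether the stages shared mice was not tested, and the stage comparisons were unpaired. With the replicate block 7, 7, 5, 8 and 1 members passed by stage in Ctrl and cKO, by genotype in eLPre and sPre cells, and for stage dependence; Il7r was the one gained in sPre cells (adjusted p = 0.0295). Of 83 results of other listed genes, 68 passed in every alternative, a check chosen after seeing the data. Socs3 and Cish had the fewest counts of the members, 61 to 760 per library. With 2 libraries a group, and both Ctrl replicate 2 libraries differing in Xist and Y-linked counts, sex and genotype were partly confounded.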
